A study of Mus musculus with 16 samples.

Results

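The RNA-seq comparison described here asked which transcripts differed in level between hair follicle stem cells (HFSCs) that had received N1-acetylspermidine (N1-AcSpd) and untreated HFSCs. It used 4 of the 16 libraries of the study, namely untreated HFSC replicates 1 and 2 and N1-AcSpd-treated HFSC replicates 1 and 2 (n = 2 per group). The libraries were compared without pairing, 1 transcript was kept for each of 22579 genes, and the 12242 that averaged 10 or more counts over the 8 RNA-seq libraries were tested.

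All cells came from C57BL/6J mice and were grown for 2 weeks as HFSC 3D–3C organoids, a culture in which stem cells and their progeny persist side by side. They were then sorted into α6+/CD34+ HFSCs and α6+/CD34− progenitors, where α6 is the integrin subunit encoded by Itga6 and Cd34 is the surface marker of bulge stem cells. Organoids were left untreated or received N1-AcSpd for 72 h before sorting. The labels name 2 donor mice, 1 per replicate number, and give neither their age nor their sex. For the isolation of epidermal cells the paper's methods state mice of both sexes in telogen, within given ranges of postnatal days. They do not say which applied to these 2 mice. RNA-seq libraries were depleted of rRNA, and ribosome footprints (Ribo-seq) were sequenced from the same sorted populations.

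Spermidine is a polyamine, a small positively charged molecule that binds nucleic acids and is needed for growth and translation. The enzyme SSAT, encoded by Sat1, acetylates it to N1-AcSpd, which can be exported or oxidised. HFSCs rest in the bulge of the follicle and express keratin 15, whereas keratinocytes that leave the stem cell state and mature build the cornified envelope, a shell of crosslinked proteins (involucrin, loricrin, small proline-rich and late cornified envelope proteins) under the plasma membrane, covered by specialised lipids.

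The 4 HFSC RNA-seq libraries held between 23775064 and 31505435 counts on the transcripts kept, and the 4 progenitor libraries between 21601141 and 24485270. The sorting markers matched the labels. Cd34 stood at 67.4 and 87.0 CPM (counts per 1000000 counts of the library, after scaling between libraries) in untreated HFSCs and at 90.1 and 68.1 CPM in treated HFSCs, against 2.35 to 5.37 CPM in the 4 progenitor libraries. In RNA-seq, the numbering of the treated HFSC replicates went against the others. The difference between replicates 1 and 2, taken gene by gene over 12242 genes, correlated between the other 3 groups with r = 0.35, 0.46 and 0.59, but with the treated HFSCs at r = −0.40, −0.42 and −0.57. The RNA-seq difference of the treated HFSC replicates also correlated negatively with the footprint difference of the same 2 labels (r = −0.38 over 1029 genes averaging 20 or more footprints), against 0.17, 0.28 and 0.38 in the other groups. These correlations describe genes that share libraries. The unpaired comparison does not use the numbers, and in the text "replicate 1" and "replicate 2" of the treated HFSCs are the names on the labels.

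Of the 12242 genes, 0 (0.0%) passed an adjusted P-value of 0.05 in the quasi-likelihood test of edgeR, adjusted after Benjamini and Hochberg. At an unadjusted P-value under 0.05 there were 1046 genes (8.54% of those tested), 582 higher with N1-AcSpd (4.75%) and 464 lower (3.79%). DESeq2 on the same counts called 126 genes (1.03%), 100 higher (0.817%) and 26 lower (0.212%), so the number of genes called rested on the tool. It rested on the pairing too. With the replicate number as a block edgeR passed 0 genes, and with the numbers of the treated HFSC replicates exchanged in the block, an alternative added after the data were seen, it passed 191. Both treated libraries lay above both untreated ones in 2035 genes (16.6%) and below both in 2172 (17.7%). The median difference over all genes was −0.02 on the log2 scale, with 5737 genes above 0 and 6505 below 0. Differences below are therefore given as values with their unadjusted P-values, and no single gene of this comparison is called changed by the main test. Counts of list members at the unadjusted threshold stand beside the 4.75% higher and 3.79% lower of all genes. Genes named beyond the naming rule, as members of a group, were chosen after their values were seen.

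The smallest P-values belonged to keratin 15 and the matrix gene Ltbp2, lower with N1-AcSpd, and to the envelope precursors Ivl and Sprr1b, higher with it. Krt15, the intermediate filament protein used to mark bulge stem cells (chr11:100131758-100135928, minus strand, GRCm38), stood at 682 and 765 CPM in untreated HFSCs and at 347 and 308 CPM in treated HFSCs. Untreated libraries held 2.21 times the treated level, a log2 difference of −1.14 ± 0.114 (SE; unadjusted P = 7.51e-06, adjusted P = 0.0596). Ivl encodes involucrin, a scaffold protein of the cornified envelope (chr3:92570902-92573735, minus strand). It stood at 15.6 and 15.03 CPM without N1-AcSpd and at 29.05 and 29.5 CPM with it, 1.91 times as much (log2 difference 0.93 ± 0.0968, unadjusted P = 9.74e-06, adjusted P = 0.0596). In both genes the gap between groups was many times the gap between replicates. DESeq2 gave adjusted P-values of 2.44e-13 for Krt15 and 2.06e-06 for Ivl.

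Beside involucrin, the small proline-rich proteins Sprr1a and Sprr1b, which crosslink the envelope, mark differentiated keratinocytes. Sprr1b (chr3:92436809-92438789, minus strand) stood at 26.6 and 28.5 CPM in untreated and at 77.7 and 61.4 CPM in treated HFSCs, 2.52 times as much (log2 difference 1.33 ± 0.158, unadjusted P = 2.62e-05, adjusted P = 0.0802). Sprr1a (chr3:92483952-92485895, minus strand) stood at 14.1 and 28.9 CPM in untreated and at 67.0 and 58.9 CPM in treated HFSCs, a log2 difference of 1.56 ± 0.282 (unadjusted P = 0.000521, adjusted P = 0.195). The treated libraries were the higher ones in both genes, and for Sprr1a the untreated replicates differed from each other by more than the treated ones. Without untreated replicate 2, Sprr1a gave 2.17 and passed (adjusted P = 0.0302), together with Cdsn, Cnfn and 1 predicted gene.

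The sequences before the start sites of the 3 marker genes are shown because each holds a TATA box and an AP-1 match, which most envelope genes do not. Each is the 250 bases before the RefSeq start site, 5′ to 3′ on the minus strand of GRCm38.p6, with capitals marking the TATA box (TATAAA) and the letters bound by AP-1 factors (TGANTCA), searched on both strands.
Sprr1a, chr3:92485882-92486131: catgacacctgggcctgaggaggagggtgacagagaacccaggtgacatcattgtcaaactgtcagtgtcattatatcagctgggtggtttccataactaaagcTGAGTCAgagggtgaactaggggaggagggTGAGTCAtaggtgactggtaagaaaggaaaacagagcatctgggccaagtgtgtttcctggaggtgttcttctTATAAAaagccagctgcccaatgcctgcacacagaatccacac
Sprr1b, chr3:92438780-92439029: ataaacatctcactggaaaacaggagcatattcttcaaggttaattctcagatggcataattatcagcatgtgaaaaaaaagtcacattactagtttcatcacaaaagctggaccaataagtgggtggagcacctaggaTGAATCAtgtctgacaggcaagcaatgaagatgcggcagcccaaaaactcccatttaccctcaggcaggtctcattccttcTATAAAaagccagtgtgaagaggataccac
Ivl, chr3:92573736-92573985: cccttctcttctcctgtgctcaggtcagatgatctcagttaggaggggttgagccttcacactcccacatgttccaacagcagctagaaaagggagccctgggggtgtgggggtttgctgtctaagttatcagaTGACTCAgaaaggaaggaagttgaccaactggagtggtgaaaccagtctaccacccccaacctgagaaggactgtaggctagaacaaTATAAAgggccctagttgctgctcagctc
The TATA box began at positions −43, −30 and −29 in Sprr1a, Sprr1b and Ivl, and AP-1 matches began at positions −146 and −116 in Sprr1a, −111 in Sprr1b and −116 in Ivl, counted from the start. Among the 39 envelope genes tested that have an entry in the RefSeq promoter table (windows from 250 bases before to 50 after the start), 15 (38.5%) held TGANTCA, against 4.97% of the 9455 promoters of genes tested, and 16 (41.03%) held TATAAA, against 6.74%. The median log2 difference was 1.11 for the 15 envelope genes with TGANTCA and 1.67 for the 24 without it. For TATAAA it was 1.33 for the 16 with a match and 1.67 for the 23 without one. Many envelope genes were scarce and could reach the minimum count through the treated libraries, which raises their differences. These medians therefore do not rank genes with a match against those without one, and a part of either motif was not tested. No TATA box overlapped an AP-1 match in the 3 windows shown.

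**Figure D1:**
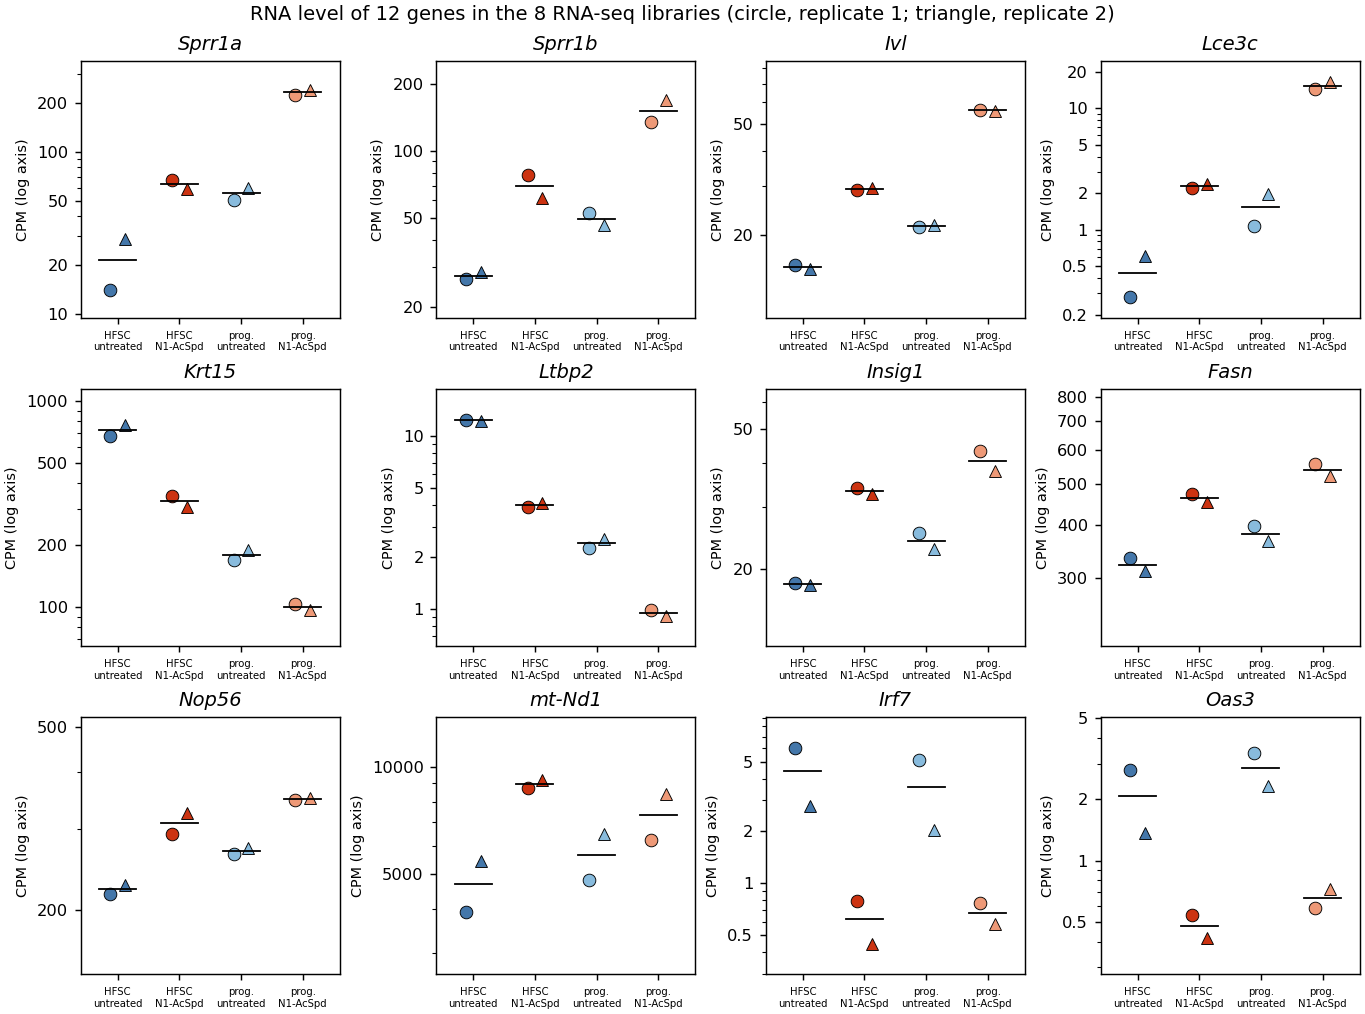
CPM (log axis) of 12 genes in each of the 8 RNA-seq libraries, untreated in blue and N1-AcSpd in red, HFSCs on the left and progenitors (prog.) on the right of each panel, with a bar at the group mean. Sprr1a, Sprr1b, Ivl, Lce3c, Insig1, Fasn, Nop56 and mt-Nd1 lay higher and Krt15, Ltbp2, Irf7 and Oas3 lower in both treated HFSC libraries, and for Irf7 and Oas3 the untreated replicates also lay apart.

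The group of cornified envelope precursors was higher in treated HFSCs over most of its range. Of 54 genes listed, 44 were tested, and 36 of these lie between positions 92080271 and 93471980 of chromosome 3 in GRCm38. At an unadjusted P-value under 0.05, 25 of the 44 (56.8%) were higher and 0 lower, against 4.75% and 3.79% of all genes, and DESeq2 called 15, all higher. The median log2 difference was 1.39, against −0.02 over all genes. Many of these transcripts were scarce, and those that reached the mean of 10 counts could do so through the treated libraries. Requiring that mean in the untreated HFSC libraries left 22 genes, 12 of them higher and 0 lower at the unadjusted threshold, with a median of 0.85. The 10 genes not tested summed to 11 and 8 counts in untreated and 24 and 42 in treated HFSCs.

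Among the scarce members, Lce3c, a late envelope protein, gave 9 and 16 counts in untreated and 53 and 75 in treated HFSCs (0.280 and 0.607 CPM against 2.21 and 2.39 CPM; log2 difference 2.40, unadjusted P = 0.000332). Lce3d gave 2 and 10 counts against 38 and 47. Sprr2h stood at 28.98 and 30.4 CPM against 48.3 and 64.0 CPM (0.92, unadjusted P = 0.000178). Cnfn, which encodes cornifelin, gave 51 and 140 counts against 259 and 337. Reads of the Sprr2, Lce1, Lce3 and Stfa families can match several near-identical copies, so the split between members of a family is uncertain. Not every precursor was higher. Lor, which encodes loricrin, the most abundant protein of the mature envelope, gave 36 and 16 counts in untreated and 16 and 21 in treated HFSCs, and the periplakin gene Ppl gave a log2 difference of 0.08 (unadjusted P = 0.652). The summed level of the list did not separate the groups, with 1292 and 940 CPM in untreated and 1186 and 2321 CPM in treated HFSCs. Stfa3, a stefin, was the most abundant member, at 765, 436, 484 and 1460.1 CPM in the same order.

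Genes of the suprabasal layers and of the lipid barrier lay in the same direction. Of 12 suprabasal keratins and secreted spinous proteins tested, 6 (50%) were higher and 0 lower at the unadjusted threshold (median 0.86). All genes tested gave 4.75% and 3.79%. Requiring the mean of 10 counts in the untreated HFSC libraries left 10 genes, 4 of them higher and 0 lower, with a median of 0.58. Krt1, the first keratin made when cells leave the basal layer, stood at 8.24 and 9.26 CPM in untreated and at 16.2 and 31.4 CPM in treated HFSCs (log2 difference 1.45, unadjusted P = 0.005), and the calmodulin-like Calm4 at 14.8 and 21.5 against 27.8 and 50.3 CPM (1.12, unadjusted P = 0.00473). The treated replicates differed from each other about as much as the groups did in Krt1. Krtdap, a secreted spinous protein, overlapped between groups, with 60.0 and 51.2 CPM against 48.8 and 123 CPM. The count was 3 of 12 without untreated replicate 1 and 4 without treated replicate 2, when the median was 0.29.

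Of 32 barrier lipid and crosslinking enzymes tested, 13 (40.6%) were higher and 1 (3.12%) lower (median 0.62), against 4.75% and 3.79% of all genes. DESeq2 called 6 higher. Abca12, the lipid transporter of lamellar granules, stood at 73.2 and 70.8 CPM in untreated and at 110.4 and 98.7 CPM in treated HFSCs (0.54, unadjusted P = 0.002). Alox12b, a lipoxygenase that acts on barrier ceramides, stood at 0.777 and 1.21 CPM against 2.50 and 2.94 CPM (1.46, unadjusted P = 0.000488), and Tgm1, the transglutaminase that crosslinks the envelope, at 8.74 and 6.37 against 11.5 and 20.9 CPM (1.10, unadjusted P = 0.0136). The gene that was lower was the lipoxygenase gene Alox12e, with 4.76 and 2.66 CPM against 2.00 and 1.76 CPM. Without treated replicate 2, 8 of the 32 were higher.

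Proteases and adhesion genes of the shedding layers were mixed. Among 23 epidermal proteases and inhibitors, 7 (30.4%) were higher and 0 lower, against 4.75% and 3.79% of all genes, but the list median was only 0.07. The kallikrein Klk7, which cleaves corneodesmosomes, stood at 1.96 and 3.57 CPM in untreated and at 7.01 and 10.4 CPM in treated HFSCs (1.68, unadjusted P = 0.00062), and the membrane protease Tmprss4 at 9.64 and 9.49 against 16.2 and 19.6 CPM (0.91, unadjusted P = 0.000325). Among 14 desmosome genes 4 (28.6%) were higher and 0 lower (median 0.08). These 4 were the differentiation-associated Dsg1b (21.4 and 21.7 against 38.9 and 53.1 CPM, 1.10), Dsc1 (1.35) and Cdsn (1.36), and the more widely expressed Dsc2 (0.49). Of 22 transcription factors of epidermal differentiation 3 (13.6%) were higher and 0 lower, against 4.75% and 3.79% of all genes. Among them, Zfp750 stood at 8.39 and 7.06 CPM in untreated and at 11.9 and 25.4 CPM in treated HFSCs (1.27, unadjusted P = 0.00758), and Grhl3 gave 1.04. Leaving out treated replicate 2 left 1 higher, and leaving out untreated replicate 2 gave 2 lower.

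**Figure D2:**
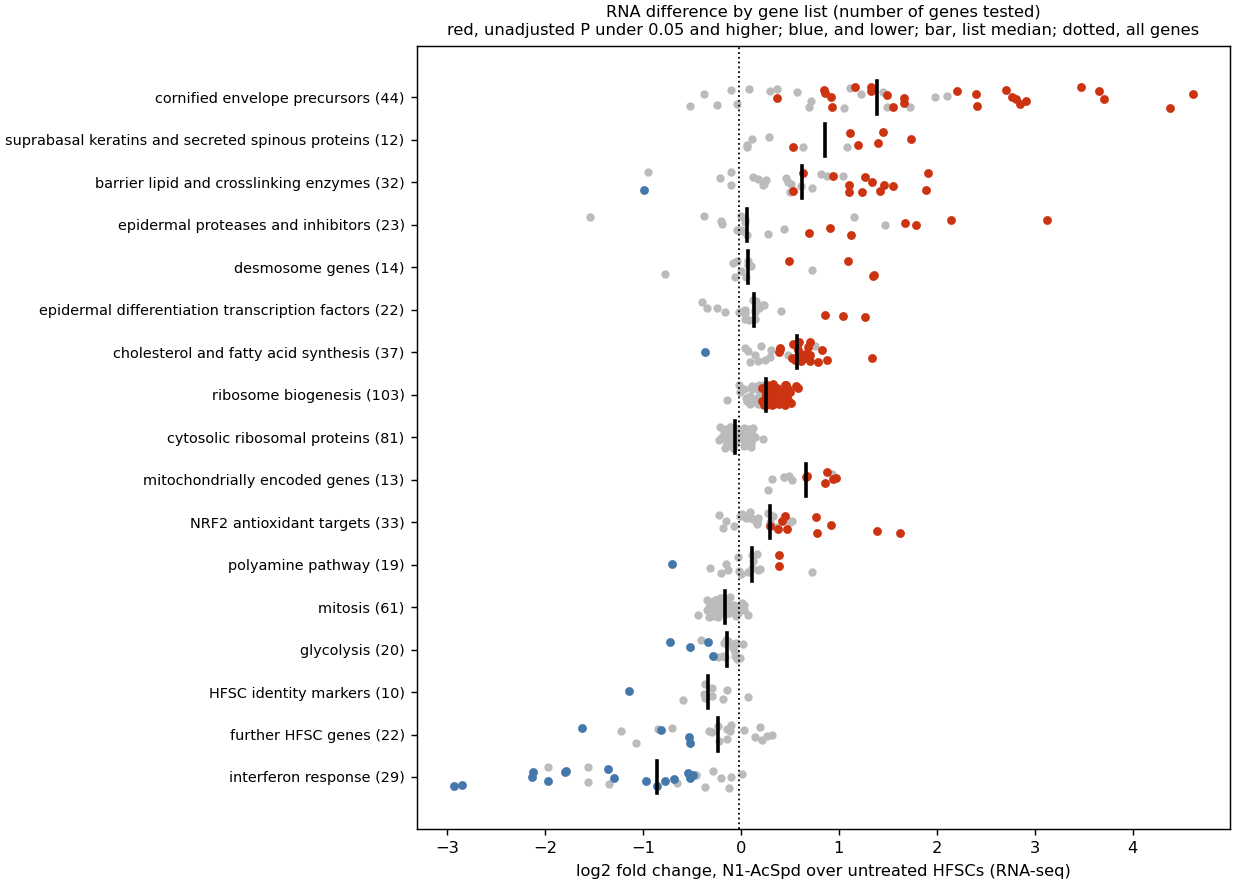
Log2 fold change of treated over untreated HFSCs for each tested gene of 17 lists, 1 point per gene, with the number of genes tested in brackets and a bar at the list median. Points with an unadjusted P-value under 0.05 are red (higher) or blue (lower), and the dotted line is the median of all 12242 genes. Envelope precursors reached from −0.52 to 4.61, cholesterol and fatty acid genes clustered around their median of 0.57, and interferon response genes lay below 0 except 1.

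Other cell types were checked through their markers. The 7 differentiated keratinocyte markers (Sprr1a, Sprr1b, Ivl, Krt1, Krt10, Lor and Flg) summed to 68.4 and 85.1 CPM in untreated and to 194 and 190 CPM in treated HFSCs, 2.50 times as much. Sprr1a, Sprr1b and Ivl supplied most of the sum in each library, so it largely repeats their values given above. Of the 6 markers tested, 5 gave a positive and 1 a negative log2 difference. The sum of the 7 stayed far below the 6 basal keratinocyte markers, at 35701 to 38526 CPM in the 4 libraries. Fibroblast markers summed to 1.90 to 5.93 CPM, immune cell markers to 0.894 to 3.26 CPM, melanocyte markers to 0.876 to 1.24 CPM, endothelial markers to 1.34 to 2.43 CPM and Merkel cell markers to 0.0759 to 0.187 CPM over the 4 HFSC libraries, with 4 of 10 immune and 2 of 8 fibroblast markers without a count there. Their part in the results was not tested. Hair shaft and matrix markers summed to 31.9 and 31.5 CPM in untreated and to 23.4 and 25.9 CPM in treated HFSCs, and sebocyte markers to 271 and 297 against 309 and 308 CPM. In sorted bulk samples a larger share of differentiating cells and more of these transcripts per cell cannot be told apart, here and in every result below.

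HFSC genes other than Krt15 lay mostly below 0, by amounts that varied from gene to gene. Of 10 HFSC identity markers, 9 gave a negative log2 difference, as did 6505 of all 12242 genes. Krt15 was the 1 with an unadjusted P-value under 0.05, and the list median was −0.33. Their summed level was 1238 and 1570 CPM in untreated and 1001 and 775 CPM in treated HFSCs, and Krt15 supplied the largest share of it. Sox9, a transcription factor needed for stem cell maintenance, stood at 230.2 and 285 CPM against 241 and 159 CPM (−0.37, unadjusted P = 0.132), so its groups overlapped. Nfatc1, which holds bulge cells in quiescence, stood at 88.4 and 91.4 against 79.8 and 83.2 CPM (−0.14, unadjusted P = 0.215), without overlap. Cd34 itself, on which cells were sorted, gave 0.04 ± 0.286 (unadjusted P = 0.905), and Itga6, the other sorting marker, gave 0.15 (unadjusted P = 0.205). With untreated replicate 1 left out 3 of the 10 were lower at the unadjusted threshold, and with treated replicate 1 left out 2 were. The list median was 0.08 without untreated replicate 2 and to −0.05 without treated replicate 2.

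Of 22 further HFSC genes, 4 (18.2%) were lower and 0 higher (median −0.23), against 3.79% and 4.75% of all genes. Ltbp2, a latent TGF-β binding protein of the matrix (chr12:84783212-84876532, minus strand), stood at 12.4 and 12.2 CPM in untreated and at 3.88 and 4.09 CPM in treated HFSCs, 3.08 times lower (log2 difference −1.62 ± 0.183, unadjusted P = 1.80e-05, adjusted P = 0.0735). The replicates of each group were close to each other. Postn, which encodes the matrix protein periostin, stood at 242 and 370.1 CPM against 190.1 and 159 CPM (−0.81, unadjusted P = 0.00571). Susd2 gave −0.53 and the Wnt target Axin2 −0.51. The count of lower genes was 9 without treated replicate 1 and 2 without untreated replicate 2.

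In untreated cells 20 genes (0.163%) differed between HFSCs and progenitors at an adjusted P-value under 0.05, 15 of them higher in HFSCs. With the replicate number as a block these were 3, namely Cd34, Krt15 and Ltbp2, and 723 with the numbers of the treated HFSC replicates exchanged. Leaving out any 1 of the 4 untreated libraries left 1 to 7. That comparison and the N1-AcSpd comparison share the untreated HFSC libraries, so the values are set side by side only. Krt15 was higher in HFSCs than in progenitors by 2.01 on the log2 scale and lower with N1-AcSpd by 1.14. Ltbp2 was higher in HFSCs by 2.35 and lower with N1-AcSpd by 1.62. Cd34 was higher in HFSCs by 4.70 and differed by 0.04 with N1-AcSpd. Sprr2h, Tmprss4 and the cytokine gene Tslp were lower in HFSCs, at −1.05, −1.21 and −0.85, and gave 0.92, 0.91 and 0.60 with N1-AcSpd. Tslp stood at 219.7 and 198 CPM in untreated and at 296 and 337 CPM in treated HFSCs (unadjusted P = 0.000429).

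Genes of sterol and fatty acid synthesis were mostly higher in treated HFSCs. Many of them are targets of the SREBP transcription factors, which are released from the endoplasmic reticulum when sterols are low. Of 37 genes tested, 36 gave a positive log2 difference, against 5737 of all 12242. At the unadjusted threshold 25 (67.6%) were higher and 1 lower, against 4.75% and 3.79% of all genes. DESeq2 called 16 (43.2%), all higher, against 0.817% of all genes. The median was 0.57. Insig1, which retains SREBP and is itself a SREBP target (chr5:28071363-28078662, plus strand), stood at 18.2 and 17.98 CPM in untreated and at 34.1 and 32.6 CPM in treated HFSCs (0.88 ± 0.116, unadjusted P = 5.71e-05, adjusted P = 0.117). Its relative Insig2 was the gene that was lower, at 30.7 and 28.8 against 24.7 and 21.6 CPM (−0.36, unadjusted P = 0.0338).

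Enzymes of sterol synthesis were among the genes that were higher. Lss, lanosterol synthase, stood at 54.5 and 49.7 CPM in untreated and at 79.9 and 77.1 CPM in treated HFSCs (0.59, unadjusted P = 0.00021), and Sc5d, a sterol desaturase, at 33.4 and 33.96 against 49.9 and 56.3 CPM (0.66, unadjusted P = 0.000224). The treated libraries lay above the untreated ones in each of these genes, with a gap larger than that between replicates. Fatty acid genes lay in the same direction. Fatty acid synthase Fasn stood at 334 and 311 against 474 and 454 CPM (0.52, unadjusted P = 0.000635) and the desaturase Scd2 at 100.1 and 88.9 against 159 and 167 CPM (0.78, unadjusted P = 0.000108). The sterol regulatory element bound by SREBP (TCACCCCAC, searched on both strands after the values were seen) was held by 1 of the 26 promoters of the list (3.85%), against 0.539% of those of all genes tested. The transcription factor genes themselves gave 0.14 (Srebf2) and 0.07 (Srebf1), with unadjusted P-values of 0.154 and 0.508.

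Ribosome biogenesis genes were also higher, by less. These encode the nucleolar factors that process rRNA and assemble ribosomal subunits. Of 103 tested, 100 gave a positive difference, against 5737 of all 12242 genes, and the median was 0.26. At the unadjusted threshold 57 (55.3%) were higher and 0 lower, against 4.75% and 3.79% of all genes. DESeq2 called 9 higher (8.74%), against 0.817% of all genes. Nolc1, a nucleolar phosphoprotein, stood at 112 and 111 CPM in untreated and at 156 and 159.7 CPM in treated HFSCs (0.51, unadjusted P = 0.000409), and Nop56, a core protein of box C/D small nucleolar RNPs, at 217 and 227 against 293 and 325 CPM (0.48, unadjusted P = 0.000873). The 81 cytosolic ribosomal protein genes gave a median of −0.06, with 0 higher and 0 lower at the unadjusted threshold. With dispersion estimated from the 4 HFSC libraries only, 36 ribosome biogenesis genes were higher.

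**Figure D3:**
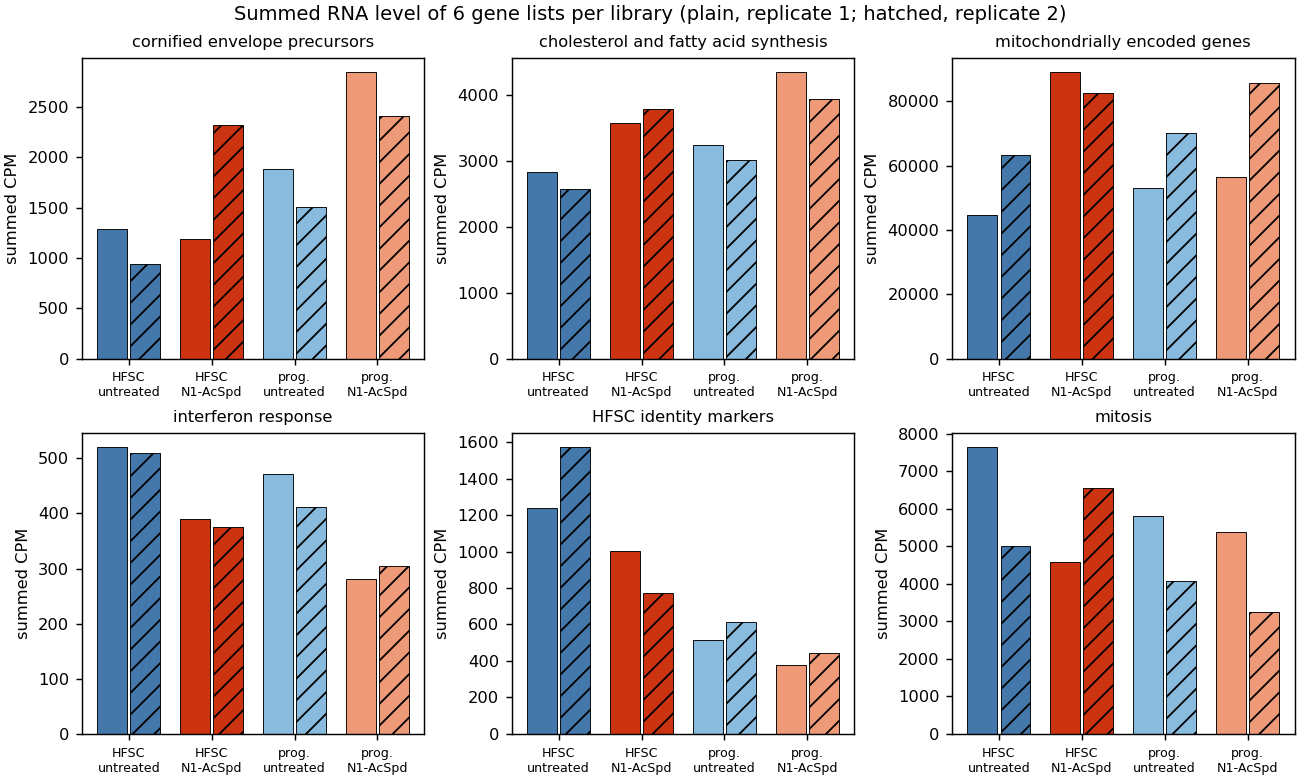
Summed CPM of 6 gene lists in each of the 8 RNA-seq libraries, as bars from 0. Cholesterol and fatty acid synthesis (2585 to 2837 CPM in untreated and 3584 to 3799 in treated HFSCs), mitochondrially encoded genes and interferon response separated the HFSC groups, whereas the sums of envelope precursors and of mitosis genes (5006 to 7640 CPM against 4575 to 6554) overlapped.

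All 13 protein-coding genes of the mitochondrial genome gave a positive difference in HFSC RNA, with a median of 0.66. At an unadjusted P-value under 0.05, 6 (46.2%) were higher and 0 lower, against 4.75% and 3.79% of all genes. The complex I subunit mt-Nd1 stood at 3933 and 5438 CPM in untreated and at 8737 and 9200.5 CPM in treated HFSCs (0.94, unadjusted P = 0.00236), and mt-Nd2 at 2246 and 2835 against 5249 and 4702 CPM (0.97, unadjusted P = 0.00244). Their summed share of the library went from 44640 and 63362 CPM to 88938 and 82490 CPM. The 76 nuclear genes of the respiratory chain had a median of 0.04, with 1 higher at the unadjusted threshold. Copies of mitochondrial genes in the nuclear genome are near-identical, so reads could be split between them. The count was 2 of 13 without untreated replicate 1, 3 without treated replicate 1 and 11 without untreated replicate 2. In footprints the 7 mitochondrial genes tested all lay below 0 (median −1.18). The footprints of mt-Cytb numbered 12 and 60 in untreated and 17 and 7 in treated HFSCs (215 and 482 against 119 and 116 CPM, log2 difference −1.62, unadjusted P = 0.00173), although its RNA gave 0.88.

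Interferon response genes were lower in treated HFSCs. Of 29 tested, 28 gave a negative difference, against 6505 of all 12242 genes, and the median was −0.86. At the unadjusted threshold 16 (55.2%) were lower and 0 higher, against 3.79% and 4.75% of all genes. DESeq2 called 2 lower (6.9%), against 0.212% of all genes. Irf7, a transcription factor that amplifies the interferon response, stood at 6.03 and 2.77 CPM in untreated and at 0.793 and 0.447 CPM in treated HFSCs (−2.85 ± 0.592, unadjusted P = 0.00127). Oas3, a 2′-5′-oligoadenylate synthetase that senses double-stranded RNA, stood at 2.80 and 1.37 CPM against 0.543 and 0.415 CPM (−2.13, unadjusted P = 0.00171), which were 90 and 36 counts against 13 and 13. Untreated replicate 1 held more than replicate 2 for most of these genes, such as Ifit1 with 79 and 23 counts against 5 and 7. The number of genes lower at the unadjusted threshold was 5 without untreated replicate 1, 7 without treated replicate 1 and 6 without treated replicate 2. The immunoproteasome subunit gene Psmb9, whose product trims peptides for antigen presentation, stood at 23.6 and 34.5 CPM against 17.03 and 15.8 CPM (−0.82, unadjusted P = 0.00493).

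The interferon-stimulated response element, bound by interferon regulatory and STAT factors, was searched after these values were seen, on both strands, as GAAA, any 2 bases and GAAA. It was held by 13 of the 25 promoters of the list (52%), against 2.94% of those of all genes tested. The median log2 difference was −1.30 for the 13 genes with a match and −0.59 for the 12 without one. Oas3 is shown as the gene with the smallest P-value among those with a match, with the element in capitals, beginning at position −75 from the start (GRCm38.p6, minus strand).
Oas3, chr5:120777660-120777909: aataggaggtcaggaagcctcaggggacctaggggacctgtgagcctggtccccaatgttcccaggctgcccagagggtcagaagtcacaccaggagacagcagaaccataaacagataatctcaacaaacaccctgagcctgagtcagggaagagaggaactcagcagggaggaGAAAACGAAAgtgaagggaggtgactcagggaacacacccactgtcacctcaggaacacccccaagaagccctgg

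Antioxidant and glycolytic genes lay in opposite directions. Of 33 targets of NRF2, the regulator of glutathione and redox genes, 10 (30.3%) were higher and 0 lower (median 0.29). All genes tested gave 4.75% higher and 3.79% lower. Gsta4, a glutathione transferase, stood at 15.02 and 17.2 CPM in untreated and at 31.0 and 52.9 CPM in treated HFSCs (1.39, unadjusted P = 0.000877), and haem oxygenase Hmox1 at 36.6 and 37.3 against 48.0 and 48.2 CPM (0.38, unadjusted P = 0.00538). The count ranged with the library left out, with 2 without treated replicate 2, 6 without untreated replicate 1 and 17 without treated replicate 1. Of 20 glycolysis genes 4 (20%) were lower and 0 higher (median −0.14), among them the phosphofructokinase genes Pfkm (16.8 and 19.0 against 12.1 and 9.74 CPM, −0.72) and Pfkl (−0.28). Without treated replicate 2 there was 1, and without untreated replicate 1 there were 2.

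Few genes of the polyamine pathway reached the unadjusted threshold. Of 19 tested, 2 (10.53%) were higher and 1 (5.26%) lower, against 4.75% and 3.79% of all genes, and DESeq2 called 0. Srm, spermidine synthase, stood at 122 and 131 CPM in untreated and at 154 and 177 CPM in treated HFSCs (0.39, unadjusted P = 0.00544), and Mtap, which salvages methylthioadenosine from polyamine synthesis, gave 0.39 (unadjusted P = 0.0104). Azin2, an activator of ornithine decarboxylase, was the lower gene, at 13.8 and 20.03 against 11.2 and 9.67 CPM (−0.70, unadjusted P = 0.0106). Sat1, the enzyme that makes N1-AcSpd, stood at 173 and 144 CPM against 308 and 217 CPM, a difference of 0.73 with an unadjusted P-value of 0.0597. Odc1, ornithine decarboxylase, stood at 336 and 265 against 214 and 269 CPM, with overlapping groups. Mat2a, which makes S-adenosylmethionine, the donor for polyamine synthesis and methylation, stood at 72.2 and 67.2 against 123 and 116 CPM (0.78, unadjusted P = 9.61e-05, adjusted P = 0.138).

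Cell division genes did not separate the groups. Of 61 mitosis genes and 49 DNA replication genes, 0 and 0 had an unadjusted P-value under 0.05 and 0 were called by DESeq2, with medians of −0.17 and 0.06. Of the 54 cell division genes the study chose, 0 reached the unadjusted threshold (median −0.09). They were chosen in another sequencing experiment for a difference between HFSCs and progenitors under N1-AcSpd, which is not the comparison made here. Of the 61 mitosis genes, 56 gave a negative log2 difference, against 6505 of all 12242 genes. In 0 of the 61 did both treated libraries lie below both untreated ones. With all HFSC libraries kept, the mitosis median was negative in each setting. It ranged from −0.11 with the replicate block to −0.17 with the treated HFSC numbers exchanged in that block. Leaving out a library gave 0.14 without untreated replicate 1 and 0.06 without treated replicate 1. The median was −0.42 without untreated replicate 2 and −0.43 without treated replicate 2, so its sign changed with the library left out.

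Among the remaining genes with the smallest P-values, the replication-dependent histone gene Hist1h2ap gave 2.26 (1.83 and 1.56 against 7.35 and 8.91 CPM, unadjusted P = 3.80e-05, adjusted P = 0.0932). It has near-identical copies in its cluster, and its level is uncertain. Rdh11, a retinal reductase, stood at 35.1 and 34.03 CPM against 55.0 and 53.4 CPM (0.65, unadjusted P = 9.17e-05). On the lower side, Txnip, an inhibitor of thioredoxin and glucose uptake, stood at 49.6 and 66.7 against 27.8 and 24.6 CPM (−1.15, unadjusted P = 0.000113). Plekha2, Arhgap29, Hdac5 and Serpina3g were lower by 0.91, 1.00, 0.78 and 1.16 on the log2 scale, with unadjusted P-values of 0.000208, 0.00022, 0.000247 and 0.000408. Reads of Serpina3g can match its close relatives. Vwa5a, Ppme1 and Gpr35 gave −0.56, −0.51 and −0.90. The lipid genes Sc5d and Scd2, given above, stood among these in the order of P-values.

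Progenitors from the same organoids received the same treatment, and 20 genes (0.163%) passed an adjusted P-value of 0.05 there, 18 that rose and 2 that fell. With the replicate number as a block 1 gene passed, namely Ivl. With the numbers of the treated HFSC replicates exchanged in that block, an alternative added after the data were seen, 413 passed. Leaving out any 1 of the 4 progenitor libraries left 0 to 2. At an unadjusted P-value under 0.05, 600 genes were higher (4.9%) and 580 lower (4.74%). The progenitor libraries are separate from the HFSC libraries, but all 8 set the minimum count and the estimate of the spread in both tests. The HFSC difference had the same sign in 20 of the 20 genes, with an unadjusted P-value under 0.05 in 20 and under 0.01 in 19. Of all genes tested, 8.54% were under 0.05 in HFSCs, and the share with the same sign in both cell types was not computed. Both populations came from the same organoids, so the counts are not an independent replication. Ivl rose in progenitors from 21.3 and 21.6 CPM to 56.4 and 56.1 CPM, a log2 change of 1.39 (adjusted P = 0.00549), and Sprr1a and Sprr1b rose by 2.07 and 1.61. Krt15 fell by 0.84 on the log2 scale, from 169 and 189.9 CPM to 103.7 and 97.0 CPM. The others that rose include Cdsn, Klk5, Klk7, Kprp, Lce1d, Lce3c, Lce3d, Alox12b and Trex2.

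The difference between the 2 cell types was tested as an interaction. Of 12242 genes, 0 (0.0%) passed an adjusted P-value of 0.05 in edgeR and 0 in DESeq2, and 82 (0.67%) had an unadjusted P-value under 0.05. Envelope precursors had a median of 1.39 in HFSCs and 2.05 in progenitors over the 44 tested, but 0.85 and 0.92 over the 22 that averaged 10 or more counts in untreated HFSCs, and 4 of the 44 reached the unadjusted threshold in the interaction. For Ivl the HFSC difference minus the progenitor difference was −0.45 ± 0.135 (unadjusted P = 0.00974), for Sprr1a −0.51 ± 0.387 (unadjusted P = 0.22), for Sprr1b −0.28 ± 0.219 (unadjusted P = 0.235) and for Krt15 −0.30 ± 0.161 (unadjusted P = 0.0939). None of these passed after adjustment (adjusted P = 1). A difference between the cell types was thus not detected at this replication, which does not show that they responded alike.

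The genes with the smallest interaction P-values did not pass after adjustment, and their values are given as a description. Hist1h2ap gave 2.26 in HFSCs and 0.08 in progenitors (interaction 2.18, unadjusted P = 0.000819). Krt19, a keratin of follicle and simple epithelia, stood at 6.90 and 6.00 CPM in untreated and at 19.8 and 24.2 CPM in treated HFSCs, and at 6.39 and 13.4 against 10.8 and 6.58 CPM in progenitors (interaction 1.95, unadjusted P = 0.00424). Usp2, a ubiquitin protease, gave −0.09 in HFSCs and 1.47 in progenitors. Cholesterol and fatty acid genes (0.57 and 0.48), ribosome biogenesis genes (0.26 and 0.21) and interferon response genes (−0.86 and −0.77) had similar medians in HFSCs and progenitors, and 0 of their members reached the unadjusted threshold in the interaction. Mitochondrially encoded genes had medians of 0.66 and 0.29, with 0 of 13 past the unadjusted threshold in progenitors and 0 in the interaction.

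**Figure D4:**
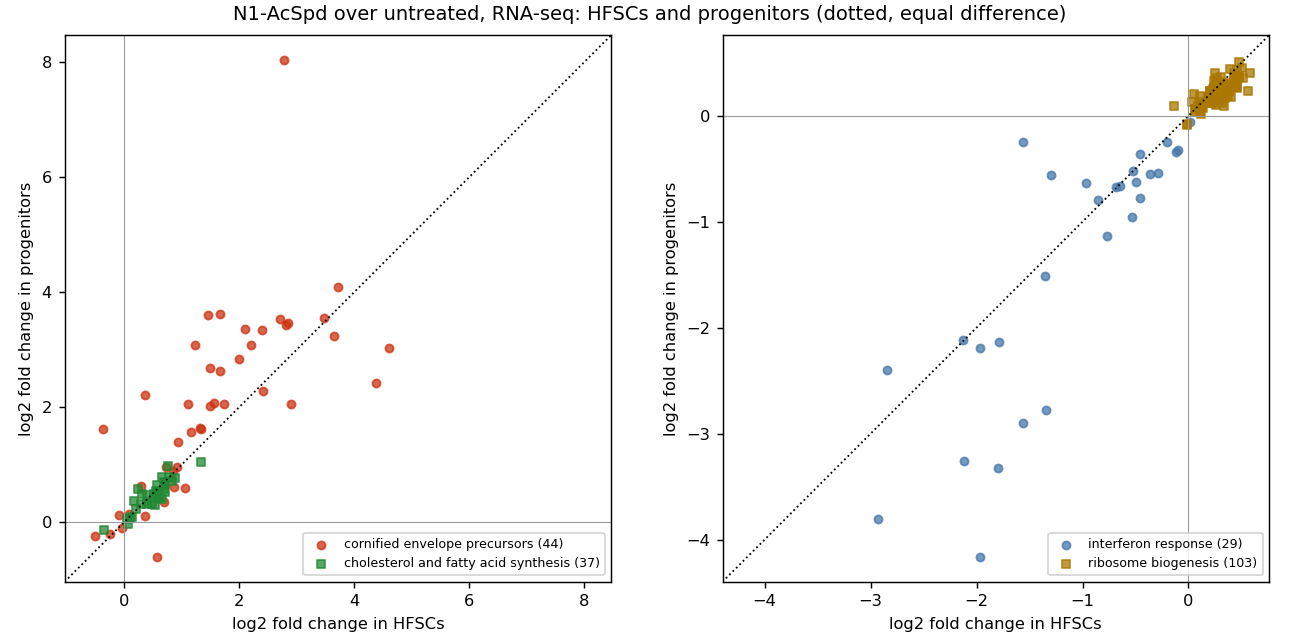
Log2 fold change with N1-AcSpd in HFSCs (horizontal) and in progenitors (vertical), 1 point per tested gene of 4 lists, with a dotted line of equal difference. Of 44 envelope precursors 33 lay above the line, sterol and ribosome biogenesis genes lay near it and interferon genes scattered around it. Over the 22 envelope precursors averaging 10 or more counts in untreated HFSCs, the medians were 0.85 in HFSCs and 0.92 in progenitors. The highest point is Lce3a, which had no count in either untreated progenitor library, so its fitted value depends on the prior count.

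The footprint libraries of the same HFSCs were shallow, with 52373 and 133279 footprints in untreated and 151892 and 59948 in treated HFSCs. Of 8431 genes averaging 1 or more footprints, 0 (0.0%) passed an adjusted P-value of 0.05 in edgeR and 0 in DESeq2. At an unadjusted P-value under 0.05 there were 299 (3.55%), 145 higher (1.72%) and 154 lower (1.83%). Krt15 had 116 and 284 footprints in untreated and 145 and 68 in treated HFSCs, which were 2077 and 2279 against 1012 and 1128 CPM, a log2 difference of −1.03 (unadjusted P = 0.00625). Gsta4 had 0 and 5 against 25 and 8 footprints (2.52, unadjusted P = 0.00136), Krt1 3 and 4 against 29 and 5 (1.91, unadjusted P = 0.0109) and Tslp 90 and 178 against 431 and 140 (0.82, unadjusted P = 0.0209). These 4 genes, named for their footprint values, lay in the direction of their RNA. The gene mt-Cytb, given above for its footprints, lay in the direction opposite to its RNA. Of 84 genes chosen by the naming rule that had a footprint test, 61 lay in the direction of their RNA and 23 in the opposite one. The opposite ones include Tmprss4 (RNA 0.91, footprints −1.02) and mt-Nd1 (0.94 and −1.02). The share of all genes with the same direction in both was not computed, so the count of 61 has no baseline.

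The markers were at the limit of the footprint depth. Ivl had 0 and 4 footprints in untreated and 7 and 4 in treated HFSCs, Sprr1a 0 and 5 against 8 and 1, and Sprr1b 0 and 7 against 11 and 0, and a library without a footprint still allows up to 3. Of 13 envelope precursors with enough footprints to be tested, 13 lay above 0 (median 0.72). Summed over the list, footprints stood at 2650.5 and 1613 CPM in untreated and at 4969 and 2223 CPM in treated HFSCs, so the groups overlapped, and Stfa3 supplied the largest part. Over all 8431 genes with a footprint test the median was −0.0018. Of 33 cholesterol and fatty acid genes 28 lay above 0 (median 0.66). Ribosome biogenesis genes were above 0 in 68 of 103 (median 0.25), and interferon response genes in 7 of 14 (median 0.05), with 44 and 139 footprints in all in untreated and 134 and 49 in treated HFSCs.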

How the data were processed

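RNA-seq and Ribo-seq were made from HFSCs and progenitors sorted from organoids, with and without N1-AcSpd. The authors deposited counts per transcript. Per the labels and the study's methods, reads were trimmed (flexbar), filtered of rRNA and tRNA (Bowtie 1.2.3), aligned with STAR 2.7.3a to GRCm38.p5 and counted, with featureCounts named. Strand and multi-mapping settings are not given in the sources used here. Columns of the authors' own differential tests were not used.

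Of 64026 transcripts, 1 per gene was kept, that with the most Ribo-seq counts, which left 22579 genes after 33 identifiers were dropped. Genes with a mean of at least 10 RNA-seq counts (1 for Ribo-seq) over 8 libraries were fitted with edgeR 4.0.16 in R 4.3.3 (TMM normalization, quasi-likelihood test, 4 groups, no block, two-sided, Benjamini-Hochberg over all genes tested, threshold 0.05). DESeq2 1.42.0 was the alternative tool. CPM values are counts per 1000000 of the TMM-adjusted library size. Scripts were tested on simulated data. Of 50 genes each changed by −2, −1, 1 and 2 on the log2 scale in treated HFSCs, the main test passed 41, 31, 35 and 49. It also passed 16 genes that were left unchanged. With n = 2 per group, P-values rest on a spread between replicates estimated over all 4 groups of an assay. Treated and untreated cells came from the same 2 mice, and the unpaired fit leaves differences between mice in that spread. Counts of 0 cover counting error only. The labels tie each replicate number to 1 mouse, so numbers pair samples by design, but replicate differences of treated HFSC RNA-seq libraries correlated at −0.40 to −0.57 with those of the other groups. The fit was therefore unpaired.

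Named genes were Sprr1a, Sprr1b, Ivl, Cd34 and Itga6, up to 10 per direction with the smallest P-value, and per list those past the threshold or the 2 with the smallest P-value. Predicted genes were only counted, and some genes that the rule names are not reported here. The comparison, the genes and the lists were chosen with earlier results of these data known. Gene positions are from the GENCODE annotation of GRCm38 and promoters from RefSeq (GRCm38.p6).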

Additional observations from a re-analysis of the deposited data

How the results depend on the processing

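The RNA-seq libraries had a biological coefficient of variation of 14.8% with 2 replicates per group. For HFSCs, edgeR passed 0 genes, also with the replicate number as a block (0), 5 at an adjusted P-value of 0.1, 38 with no minimum count and 0 to 4 with 1 library left out, the 4 without untreated replicate 2. DESeq2 called 126. After the data were seen, a block with the numbers of the treated HFSC libraries exchanged was added, which passed 191 genes in HFSCs, 413 in progenitors and 723 between untreated cell types, and put 1951 HFSC genes under an unadjusted P-value of 0.05. That unadjusted count was 745 to 1132 with 1 library left out.

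In progenitors the 20 genes became 31 with relative log expression (RLE) factors in edgeR in place of TMM. They became 107 with no minimum count, 34 with a minimum mean of 1 and 185 with DESeq2. With counts summed over transcripts 1 passed (Ivl), as with the replicate block (1, Ivl). Thresholds of 0.01 and 0.1 gave 1 and 77. Between untreated cell types the 20 became 168 with no minimum count, 3 with the replicate block, 3 and 102 at 0.01 and 0.1, 273 with DESeq2, 3 with only the libraries compared and 1 to 7 with 1 library left out. Footprints gave 0 to 1 with 1 library left out. The cause of these shifts was not tested. Of the genes followed by name, 4 changed sign with 1 library left out: S100a8 (0.94, range −0.12 to 1.52), Cenpf (−0.43, −0.84 to 0.16), Col3a1 (1.05, −2.25 to 3.34) and Cd34 (0.04, −0.19 to 0.25).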
